A study of Mus musculus with 30 samples.

Results

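The genes described here are the p53 family and the apoptosis checkpoint genes around it, followed through the first wave of spermatogenesis in mice with and without Prdm9. The set was given by name and not by measured values: the kinases Atm and Chek2, the transcription factors Trp53, Trp63 and Trp73, the p53 inhibitor Mdm2, the cell cycle inhibitor Cdkn1a, and the death genes Bax, Bbc3 and Pmaip1. These are 10 of the 65534 rows of the table. All 10 had a row, and 9 passed the filter on low values; Trp73 did not.

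When DNA breaks persist, ATM phosphorylates CHEK2, which in turn stabilises p53 and activates its relative TAp63. p53 then switches on Cdkn1a, which encodes the cell cycle inhibitor p21, and death genes such as Bbc3 (PUMA) and Pmaip1 (NOXA), which release BAX to open the mitochondrial outer membrane. MDM2 closes the loop by marking p53 for destruction, and its gene is itself a p53 target. In meiosis the breaks are made on purpose. PRDM9 is the histone methyltransferase that chooses where, and spermatocytes that lack it break their DNA at other sites, repair it poorly and are lost at the pachytene stage.

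RNA with polyA tails was sequenced from germ cells enriched from the testes of male C57BL/6J mice with less than 10% 129S1/SvImJ background, at 8, 12 and 16 days postpartum (dpp). Each age had 5 libraries from Prdm9-/- mice and 5 from non-mutant mice, which were Prdm9+/+ (3, 1 and 2 libraries at the successive ages) or Prdm9+/- (2, 4 and 3 libraries). No group was treated with any agent. The 30 libraries came from 14 litters, and every litter gave mutant and non-mutant mates of a single age. Levels are in TPM, a transcript abundance corrected for gene length and scaled to the same total in each library. The read depth behind a TPM value cannot be recovered, and the spread between animals sets the precision.

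Prdm9 itself is the check of the genotype labels. At 16 dpp it stood at 10.0 ± 2.14 TPM (SD, n = 5) in mutants and 25.05 ± 5.80 TPM (SD, n = 5) in non-mutants, without overlap. The mutant allele still gave RNA: mutants held 7.23 ± 1.57 TPM (SD, n = 5) at 8 dpp, when non-mutants held 4.80 ± 1.70 TPM (SD, n = 5). In litter 13 of 12 dpp the level went against the labels, with 19.2 TPM in the library labelled Prdm9-/- and 9.16 TPM in the library labelled Prdm9+/-. The germ cell enrichment was partial. Summed Sertoli markers reached 5199 to 9214 TPM per library against 312 to 1234 TPM for the germ cell markers, and no marker of the Sertoli, germ cell, Leydig or macrophage lists was at 0 in any library. In such mixed samples a smaller share of a cell type cannot be told apart from less RNA per cell.

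The upstream sequences of the p53 targets Cdkn1a, Mdm2 and Bax are shown first, searched for the short half-site that p53 binds in paired copies. Sites of p53 outside such windows were not searched. Each line holds the 250 bases before a RefSeq transcription start (GRCm38.p6), 5′ to 3′ on the strand of the gene, with perfect matches to the p53 half-site consensus in capitals. For Cdkn1a the start shown is the more upstream one. The Cdkn1a window is chr17:29090729-29090978 (plus strand), that of Mdm2 is chr10:117710759-117711008 (minus strand) and that of Bax is chr7:45466899-45467148 (minus strand).
Cdkn1a: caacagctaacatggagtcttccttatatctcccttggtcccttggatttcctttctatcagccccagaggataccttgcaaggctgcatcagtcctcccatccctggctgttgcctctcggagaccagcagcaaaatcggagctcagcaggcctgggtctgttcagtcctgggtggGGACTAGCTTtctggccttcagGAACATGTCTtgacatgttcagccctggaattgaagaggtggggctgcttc
Mdm2: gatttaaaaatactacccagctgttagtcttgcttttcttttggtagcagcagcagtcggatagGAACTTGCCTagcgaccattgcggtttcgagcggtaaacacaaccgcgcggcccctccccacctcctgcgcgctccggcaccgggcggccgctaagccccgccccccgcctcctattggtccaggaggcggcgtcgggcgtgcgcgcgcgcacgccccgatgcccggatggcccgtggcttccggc
Bax: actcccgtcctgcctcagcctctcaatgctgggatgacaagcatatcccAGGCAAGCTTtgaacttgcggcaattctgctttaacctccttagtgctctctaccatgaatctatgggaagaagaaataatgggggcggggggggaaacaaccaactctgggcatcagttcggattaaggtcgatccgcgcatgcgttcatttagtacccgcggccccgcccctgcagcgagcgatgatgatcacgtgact
A perfect half-site was present in 7.13% of the 32851 RefSeq windows of this length, searched on both strands, and 2 or more were present in 0.259%. The Cdkn1a window shown held 2, of which GAACATGTCT, starting 51 bases before the upstream Cdkn1a start, runs straight into TGACATGTTC with 1 mismatch. Such a side-by-side pair with at most 1 mismatch occurred in 15 windows, or 0.0457%. Mdm2 had GAACTTGCCT starting 186 bases before its start and Bax had AGGCAAGCTT starting 201 bases before. Neither of these windows held such a side-by-side pair. Trp53 had GGACTTGCCC starting 75 bases before its start, in chr11:69580109-69580358. The windows of Atm, Chek2, Bbc3 and Trp73 held none. Nor did that of the downstream Cdkn1a start, chr17:29093519-29093768. Windows of 8 of the 10 genes are reported here. A match describes letters only. No binding was measured here.

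The levels of the 10 genes ran from strongly expressed to barely detected. Over the 30 libraries the mean was 93.0 TPM for Bax, 85.2 TPM for Trp53 and 76.9 TPM for Mdm2. These 3 overlapped in range, Bax exceeding Trp53 in 22 of 30 libraries and Trp53 exceeding Mdm2 in 22 of 30. A clear gap followed, as the lowest Mdm2 library lay above the highest Atm library. Atm averaged 21.3 TPM and Cdkn1a 19.7 TPM, Atm being higher in 20 of 30 libraries. Pmaip1 (9.65 TPM), Chek2 (9.13 TPM) and Bbc3 (6.97 TPM) formed an overlapping lower tier. Below them, with no overlap, came Trp63 at 0.94 TPM, and Trp73 averaged 0.207 TPM. Of the p53 family, Trp53 was therefore the abundant member in these samples at every age and genotype.

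**Figure D1:**
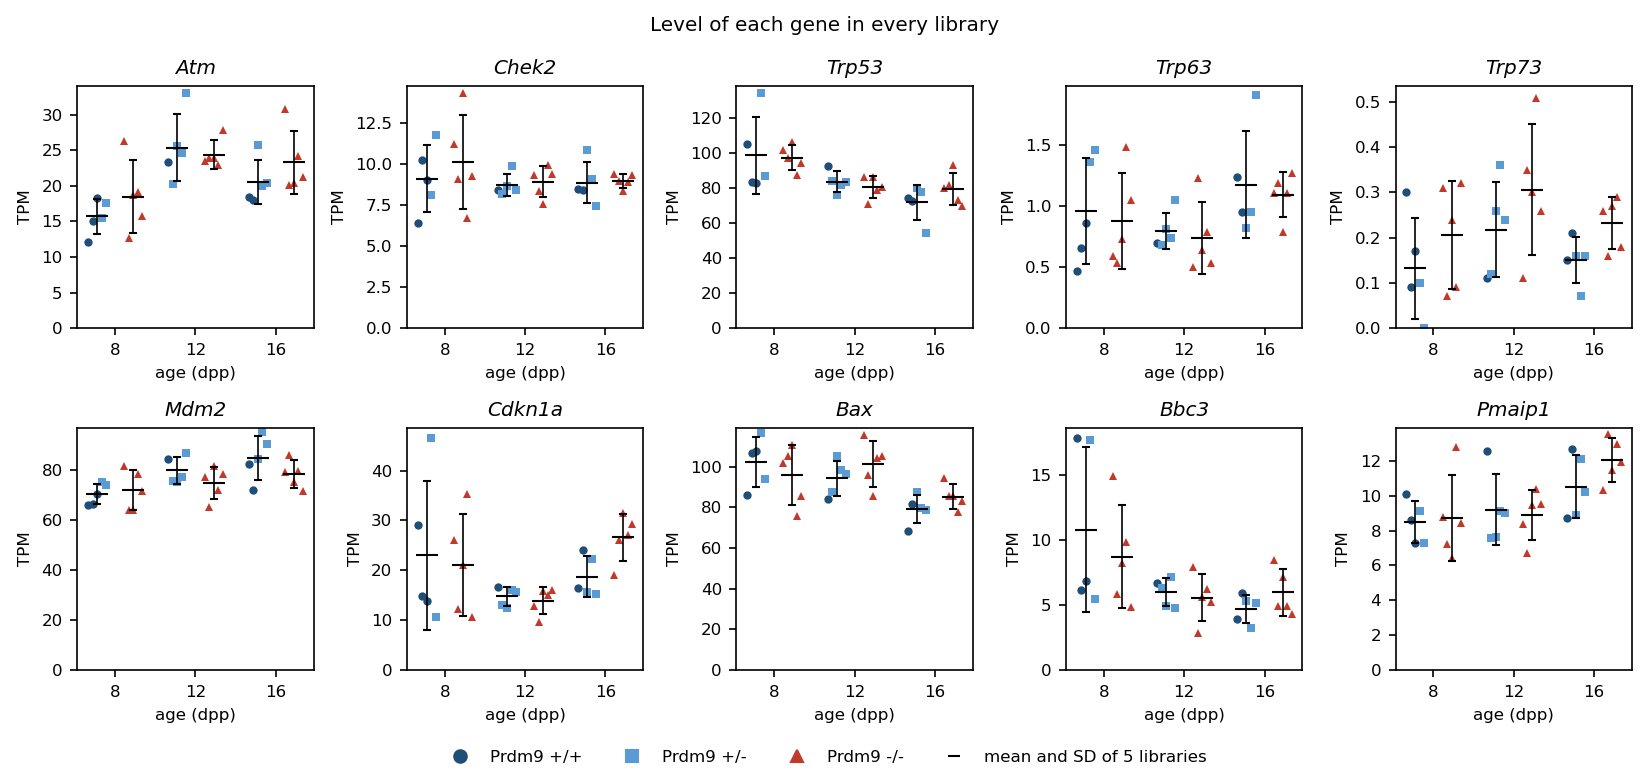
TPM of each of the 10 genes (vertical axes, linear and starting at 0) against age in days postpartum, 1 point per library, with non-mutant libraries left and Prdm9-/- libraries right of each age and bars for the mean and SD of 5 libraries. The mutant mean of Cdkn1a moves from 13.9 TPM at 12 dpp to 26.6 TPM at 16 dpp, and Atm rises from 8 to 12 dpp.

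The first question is whether loss of Prdm9 changed the RNA of these genes. At no age did any of them pass the test: 0 of 9 were called at 8 dpp, 0 of 9 at 12 dpp and 0 of 9 at 16 dpp by limma on log2(TPM + 1), a call being an adjusted p under 0.05 after Benjamini-Hochberg adjustment over all 20021 rows tested. Of all rows, 0% were called at 8 dpp, 0% at 12 dpp and 3.26% at 16 dpp. In this fit, which has no litter term, the count of members at an unadjusted p under 0.05 was also 0 at each age. All rows gave 417, 225 and 2473, where 1001 would be expected at each age if no row differed. At 8 and 12 dpp fewer rows than that passed, so the lack of calls there does not show that the genes were unchanged. The median log2 difference of the 9 genes was 0.00 at 8 dpp, -0.05 at 12 dpp and 0.15 at 16 dpp, beside 0.02, 0.00 and 0.07 over all rows.

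Cdkn1a had the largest difference of the 9 at 16 dpp. Mutant libraries read 19.1, 26.1, 31.4, 27.04 and 29.3 TPM and non-mutant libraries 16.5, 24.04, 15.6, 22.3 and 15.2 TPM. The groups overlapped, since 2 non-mutant libraries lay above the lowest mutant library, and the mutant was the higher in 5 of 5 litters. The share of all rows with such agreement of litters, or with groups that do not overlap, is not given for this or any gene below. The log2 difference was 0.49 (SE 0.289, 95% interval -0.10 to 1.08) with an adjusted p of 0.524 by limma. With the litter as a replicate block the interval narrowed to 0.25 to 0.73 and the limma adjusted p was 0.0537, still short of a call, where 2.91% of all rows were called. In the 8 dpp litters the mutant was higher in 1 of 4, and in the 12 dpp litters in 1 of 5.

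Markers of some other cell types moved the same way at 16 dpp, and others were mixed between litters. The summed macrophage and leukocyte markers were higher in the mutant in 5 of 5 litters (91.8 to 179 TPM in mutants, 70.2 to 127 TPM in non-mutants), as were the Leydig markers (187 to 519 TPM against 107 to 391 TPM) and the erythroid markers (191 to 720 TPM against 94.3 to 463 TPM). Endothelial markers were higher in the mutant in 4 of 5 litters, and Sertoli and peritubular myoid markers in 3 of 5 each. Genes known to respond to tissue dissociation summed to 2935 to 4829 TPM in mutants and 2538 to 3569 TPM in non-mutants, the mutant being higher in 4 of 5 litters. Pachytene and diplotene markers ran the other way, at 149 to 182 TPM in mutants and 337 to 1668 TPM in non-mutants. The general germ cell markers were higher in the mutant in only 1 of 5 litters (781 to 1038 TPM against 983 to 1234 TPM). The same count held for the leptotene and zygotene markers (1631 to 2186 TPM against 1783 to 2675 TPM). Markers of differentiating spermatogonia were higher in the mutant in 4 of 5 litters, and those of undifferentiated spermatogonia in 2 of 5. The part of these cells in the Cdkn1a values was not tested.

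Neither of the kinases upstream of p53 was called between genotypes. Atm, the sensor of double-strand breaks, read 30.7, 20.1, 20.4, 24.1 and 21.2 TPM in the mutants of 16 dpp and 18.5, 18.03, 25.7, 20.0 and 20.4 TPM in the non-mutants. It too was higher in the mutant in 5 of 5 litters, with overlapping groups and a log2 difference of 0.17 (95% interval -0.14 to 0.47, limma adjusted p = 0.71). With the litter as a replicate block the Atm interval narrowed to 0.025 to 0.312, above 0, and the limma adjusted p was 0.172, not a call. Chek2, the kinase that relays the ATM signal, stood at 8.998 ± 0.421 TPM (SD, n = 5) in mutants and 8.87 ± 1.26 TPM (SD, n = 5) in non-mutants at that age. Its log2 difference of 0.03 had a 95% interval of -0.26 to 0.32.

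Within the p53 family, Trp53 read 79.6 ± 9.11 TPM (SD, n = 5) in mutants and 71.8 ± 10.1 TPM (SD, n = 5) in non-mutants at 16 dpp, a log2 difference of 0.15 (95% interval -0.07 to 0.38). Trp63, whose TAp63 form guards oocytes and has been tied to spermatocyte arrest, stayed between 0.47 and 1.91 TPM in all 30 libraries. Its 16 dpp difference was -0.04 on the log2(TPM + 1) scale (95% interval -0.37 to 0.29), a scale that understates changes of so low a gene. Trp73 was listed between 0.07 and 0.51 TPM in 29 libraries and at 0 in 1 library, the Prdm9+/- replicate 2 of 8 dpp. The mutant held more Trp73 in 3 of 4, 4 of 5 and 5 of 5 litters at the successive ages, at 0.232 ± 0.0581 TPM (SD, n = 5) against 0.150 ± 0.0505 TPM (SD, n = 5) at 16 dpp. Fitted without the filter, Trp73 had a limma adjusted p of 0.767 at 16 dpp.

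Mdm2, the ubiquitin ligase that removes p53, was the steadiest of the tested genes, with an SD of 0.145 on the log2 scale over 30 libraries, compared with 0.536 for Cdkn1a and 0.538 for Bbc3. It read 78.5 ± 5.50 TPM (SD, n = 5) in mutants and 85.1 ± 8.81 TPM (SD, n = 5) in non-mutants at 16 dpp. The log2 difference was -0.11 (95% interval -0.28 to 0.05). Its direction depended on the controls: against the wild types alone, at 77.5 ± 7.45 TPM (SD, n = 2), the difference was 0.02 (limma adjusted p = 0.954).

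The 3 death genes had positive 16 dpp differences, each with an interval that spans 0. Bax, the pore former, stood at 85.2 ± 6.01 TPM (SD, n = 5) in mutants and 79.1 ± 6.91 TPM (SD, n = 5) in non-mutants, with the mutant higher in 4 of 5 litters. Pmaip1, which encodes the BH3-only protein NOXA, read 10.3, 13.5, 11.5, 12.98 and 11.9 TPM in mutants and 8.75, 12.7, 8.91, 12.1 and 10.2 TPM in non-mutants, higher in 4 of 5 litters with wide overlap. Bbc3, which encodes the BH3-only protein PUMA, read 8.49, 4.97, 7.16, 4.96 and 4.29 TPM in mutants and 3.91, 5.93, 5.30, 3.24 and 5.15 TPM in non-mutants, again higher in 4 of 5 litters. The log2 differences were 0.11 for Bax (95% interval -0.09 to 0.31), 0.19 for Pmaip1 (-0.12 to 0.49) and 0.28 for Bbc3 (-0.31 to 0.86).

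**Figure D2:**
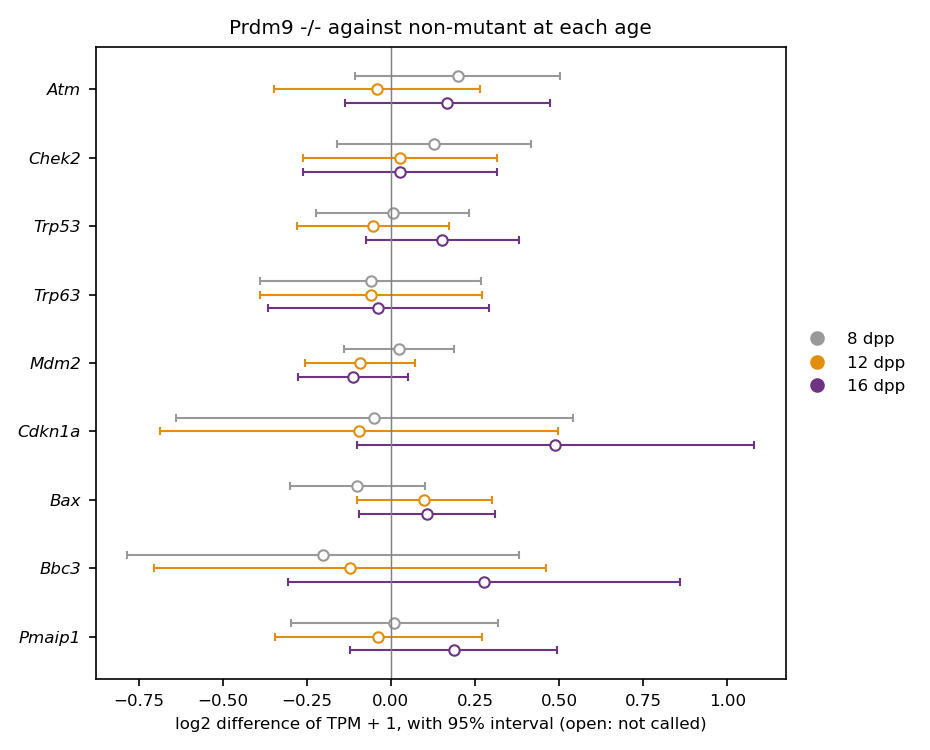
Log2 difference of TPM + 1 between Prdm9-/- and non-mutant libraries (horizontal axis, with the 95% interval) for the 9 tested genes at 8, 12 and 16 dpp. Every interval of this fit, which has no litter term, spans 0, and the widest belong to Cdkn1a and Bbc3.

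Cdkn1a and Bbc3 had a wide spread at 8 dpp, with high values in both mates of 2 litters. The 8 dpp Cdkn1a values were 29.1, 14.9, 13.8, 46.6 and 10.7 TPM in non-mutants and 26.1, 12.2, 21.03, 35.3 and 10.7 TPM in mutants. The 4 highest came from litters 3 and 10, where both mates were high: 29.1 and 26.1 TPM in litter 3, and 46.6 and 35.3 TPM in litter 10. Bbc3 shared this pattern, with 17.9 TPM in the non-mutant and 14.9 TPM in the mutant of litter 3, and 17.7 and 9.90 TPM in litter 10, while the other 6 libraries of 8 dpp lay between 4.82 and 8.21 TPM. Litter 10 also had the lowest summed germ cell markers of that age, at 329 TPM in the non-mutant and 312 TPM in the mutant. In litter 3 the mates differed in those markers (340 TPM in the non-mutant, 802 TPM in the mutant), although their Cdkn1a was alike. The dissociation response sums of these 4 libraries, 4301 to 6372 TPM, span the whole range of that age. The part of cell content in these values was not tested.

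**Figure D3:**
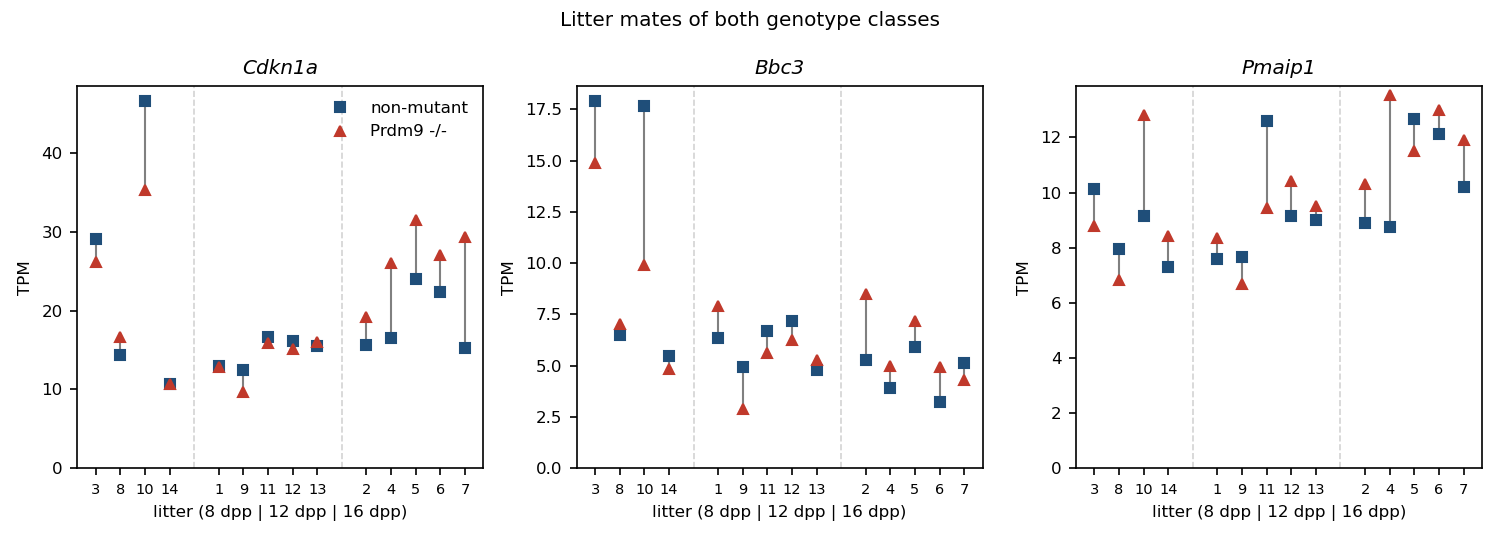
TPM of Cdkn1a, Bbc3 and Pmaip1 in litter mates (vertical axes from 0), with a line joining the Prdm9-/- and the non-mutant value of each litter and means where a litter gave 2 animals of a class. In litters 3 and 10 of 8 dpp both mates are high for Cdkn1a and Bbc3, and at 16 dpp Cdkn1a is higher in the mutant in 5 of 5 litters.

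The second question is how the genes changed with age as spermatocytes first appear and advance. Atm rose from 8 to 12 dpp. Non-mutants moved from 12.1, 15, 18.3, 15.4 and 17.6 TPM to 23.3, 20.3, 25.7, 24.6 and 33.0 TPM, with no overlap between ages. The log2 change was 0.66 (SE 0.149) with a limma adjusted p of 0.0012, and Atm was the 1 member of 9 called in a step in which 32.5% of all rows were called. In mutants Atm went from 26.3, 12.6, 18.7, 19.1 and 15.7 TPM to 23.4, 23.9, 23.9, 22.9 and 27.9 TPM. There the ages overlapped through the mutant of litter 3, and the log2 change was 0.42 (SE 0.149, limma adjusted p = 0.0348), again the 1 call of 9, beside 29.7% of all rows. The mutant call is fragile: the adjusted p was 0.0761 without litter 13 and 0.0565 with litter as a random effect. The 2 steps differed by -0.24 (95% interval -0.67 to 0.19), and no member was called in that difference, where 0% of all rows were. Summed leptotene and zygotene markers of non-mutants lay at 126 to 301 TPM at 8 dpp and 700 to 1141 TPM at 12 dpp. Those of mutants lay at 120 to 423 TPM and 546 to 1056 TPM. The part of cell content in the Atm rise was not tested.

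Trp53 had lower means at 12 than at 8 dpp in both classes. Mutants read 80.5 ± 6.42 TPM (SD, n = 5) against 97.4 ± 7.14 TPM (SD, n = 5), and non-mutants 83.6 ± 6.08 against 98.6 ± 21.9 TPM (SD, n = 5 each). The log2 change was -0.27 in mutants (limma adjusted p = 0.0642) and -0.21 in non-mutants (adjusted p = 0.143). These steps differed by -0.06 (95% interval -0.38 to 0.26). The mutant change crossed the threshold under median-ratio scaling (-0.34, adjusted p = 0.0345) and quantile normalization (-0.31, adjusted p = 0.0432). The non-mutant change crossed it under median-ratio scaling (-0.32, adjusted p = 0.0442). From 12 to 16 dpp Trp53 changed by -0.23 in non-mutants (limma adjusted p = 0.145) and -0.02 in mutants, neither called. Bbc3 had a log2 change of -0.60 in non-mutants (95% interval -1.19 to -0.02, limma adjusted p = 0.105), a step that takes in the high libraries of litters 3 and 10. Without those litters, an alternative chosen after seeing the data, it was -0.05 (adjusted p = 0.91). Chek2 changed by -0.03 in non-mutants and -0.13 in mutants, neither past the test.

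Cdkn1a rose in mutants from 12 to 16 dpp. Its values went from 12.9, 9.62, 15.9, 15.1 and 16.0 TPM to 19.1, 26.1, 31.4, 27.04 and 29.3 TPM, every library of 16 dpp lying above every library of 12 dpp. The log2 change was 0.89 (SE 0.289, 95% interval 0.30 to 1.48) with a limma adjusted p of 0.0406, the 1 call among 9 members in a step with 12.1% of all rows called. Non-mutants went from 16.7, 13.03, 12.5, 16.1 and 15.6 TPM to 16.5, 24.04, 15.6, 22.3 and 15.2 TPM, with overlapping ages and a log2 change of 0.31 (95% interval -0.28 to 0.90, limma adjusted p = 0.479). No member was called in non-mutants, beside 21.8% of all rows. The mutant and non-mutant steps were not shown to differ: the difference was 0.58 (95% interval -0.25 to 1.42, limma adjusted p = 0.877), with 0 of 9 members and 1.35% of all rows called.

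The Cdkn1a call sits close to its threshold. Without litter 13 the limma adjusted p was 0.0580, and leaving out any of 8 of the 10 mutant libraries of these ages gave 0.0516 to 0.109, with log2 changes of 0.78 to 0.94. Summed macrophage and leukocyte markers rose over the same step in mutants, from 45.3 to 102 TPM at 12 dpp to 91.8 to 179 TPM at 16 dpp, and their part in the change was not tested. The dissociation response sums of the mutants overlapped between these ages, at 3128 to 5419 TPM at 12 dpp and 2935 to 4829 TPM at 16 dpp.

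Pmaip1 had the next largest change of this step in mutants, from 8.36, 6.69, 9.44, 10.4 and 9.51 TPM to 10.3, 13.5, 11.5, 12.98 and 11.9 TPM. The ages overlapped by a single library pair, and the log2 change of 0.41 (95% interval 0.10 to 0.72) had a limma adjusted p of 0.0748. Bax was lower at 16 than at 12 dpp in both genotype classes, by log2 changes of -0.25 in non-mutants (limma adjusted p = 0.0693) and -0.24 in mutants (adjusted p = 0.112), neither called. Over the 9 tested genes the median log2 change of the later step was 0.07 in mutants and 0.01 in non-mutants, beside 0.00 and -0.09 over all rows.

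**Figure D4:**
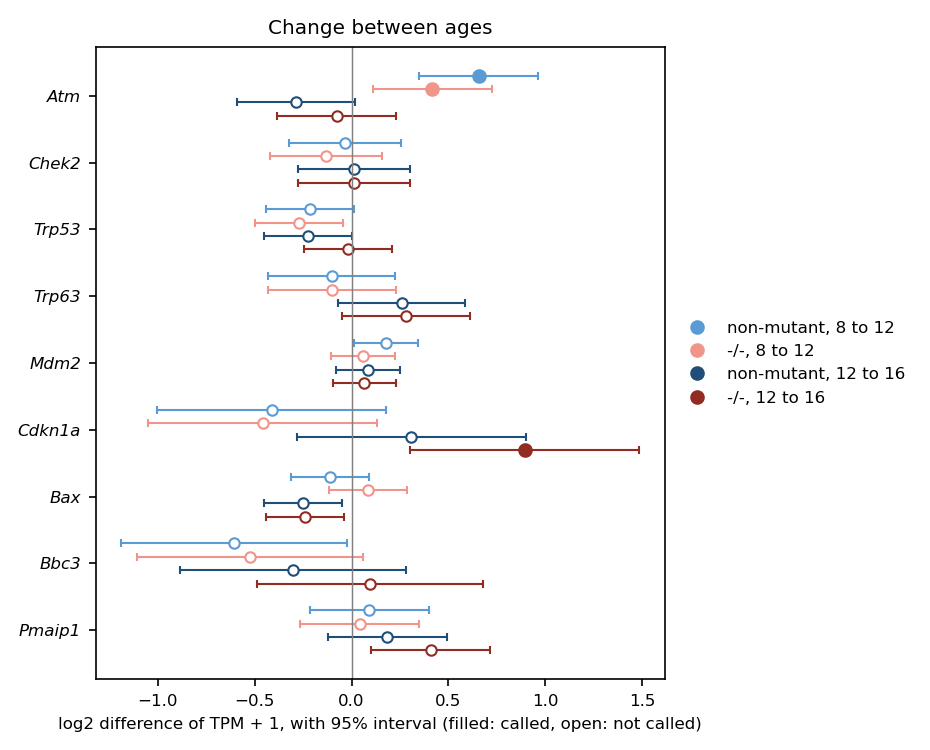
Log2 change of TPM + 1 between successive ages (horizontal axis, with the 95% interval) in non-mutant and Prdm9-/- libraries for the 9 tested genes, with filled points for called changes. The filled points are Atm from 8 to 12 dpp in both classes and Cdkn1a from 12 to 16 dpp in Prdm9-/- libraries.

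Heterozygotes and wild types were also compared, over 9 and 6 libraries with age in the fit. No litter held both genotypes, so a difference between them cannot be told apart from one between litters. At 12 dpp there was 1 wild type library. None of the 9 tested genes was called, nor was any of the 18668 rows (0%). At an unadjusted p under 0.05 the count of members was 0, against 1972 of all rows, where 933 would be expected if no row differed. The log2 differences ran from -0.17 (Pmaip1) to 0.25 (Trp63).

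The wider pathway was followed through 8 lists of 115 genes that hold none of the 10. As background for their counts, 20.3% of all rows rose and 12.1% fell from 8 to 12 dpp in non-mutants, and 17.5% rose and 12.2% fell in mutants. From 12 to 16 dpp 8.88% rose and 13% fell in non-mutants, and 6.21% rose and 5.89% fell in mutants. Among 20 genes of damage sensing and signalling, 15 rose and 1 fell from 8 to 12 dpp in non-mutants, and 9 rose and 1 fell in mutants. Those with the smallest adjusted p were Atr, the kinase that acts on unsynapsed chromosome axes, Hormad1 and Hormad2, which sit on those axes, and Mdc1, which binds phosphorylated H2AX. Atr went from 27.4 ± 6.197 to 70.9 ± 7.06 TPM (SD, n = 5 each) in non-mutants, a log2 change of 1.36, and from 28.6 ± 6.31 to 69.4 ± 8.26 TPM (SD, n = 5 each) in mutants. Hormad1, which is itself in the leptotene and zygotene marker list, rose by 2.41 and 2.11 on the log2 scale. The summed markers of that list rose over the same step, and their part in these changes was not tested. From 12 to 16 dpp 7 of the 20 rose in non-mutants and 6 in mutants, and none fell. Side by side, the earlier step was 0.66 for Atm and 1.36 for Atr in non-mutants, and 0.42 and 1.26 in mutants. The mutant and non-mutant steps from 8 to 12 dpp were not shown to differ, with 0% of all rows called in that difference. None of the 20 was called between genotypes at 16 dpp in the fit of all groups, and 1 was called lower under median-ratio scaling. With the litter as a replicate block Hormad2 was lower in mutants, at 26.3 ± 2.82 against 33.0 ± 5.47 TPM (SD, n = 5 each; log2 difference -0.31, limma adjusted p = 0.0400), and it was lower in 5 of 5 litters. With litter as a random effect, which estimates the correlation between mates, that call was lost (adjusted p = 0.449).

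The regulators of p53 moved in different directions in the successive age steps. Of 15, 7 rose and 0 fell from 8 to 12 dpp in non-mutants, a split that became 3 against 1 under median-ratio scaling and 4 against 1 under quantile normalization. Trp53inp1, a p53-induced cofactor, rose by 0.56 on the log2 scale, the deubiquitinases Usp7 and Usp28 by 0.38 and 0.34, and Cdkn2a, whose ARF product restrains MDM2, by 0.52. Cdkn2a lost its call under median-ratio scaling (limma adjusted p = 0.0584). In mutants these 4 genes rose by 0.36, 0.23, 0.42 and 0.71, and there Usp7 lost its call under median-ratio scaling (adjusted p = 0.0548). From 12 to 16 dpp 3 fell in non-mutants: the methyltransferase Setd7 (-0.43) and the acetyltransferases Crebbp (-0.62) and Ep300 (-0.42). Under median-ratio scaling that step had 1 higher and 2 lower. In mutants 1 fell, Crebbp (-0.56), and 2 fell under each scaling.

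Other p53 targets of arrest and repair went both ways from 8 to 12 dpp. Of 18, 6 rose and 6 fell in non-mutants, and 5 rose and 5 fell in mutants. Ddb2, a sensor of ultraviolet damage, rose by 1.06 and 1.01 on the log2 scale, and the stress-induced sestrin gene Sesn2 by 0.91 and 1.003. Sesn2 was also the 1 gene of the list that rose from 12 to 16 dpp in mutants (0.47, from 89.2 ± 10.7 to 124 ± 7.79 TPM, SD, n = 5 each), and 2 rose under each scaling. In non-mutants 1 rose and 2 fell in that step, the latter being Trp53i11 (-0.43) and Zmat3 (-0.59), a split of 3 higher and 2 lower under median-ratio scaling and 2 and 2 under quantile normalization.

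Between genotypes at 16 dpp no gene of this list was called without the litter in the fit. The list's median log2 difference was 0.17, beside 0.07 over all rows. With the litter as a replicate block 2 of 18 were called, both higher in mutants, where 1.21% of all rows were called higher. Ccng1, the cyclin G1 gene, stood at 34.5 to 40.6 TPM in mutants and 25.1 to 31.7 TPM in non-mutants (log2 difference 0.31, limma adjusted p = 0.0465 with the block and 0.163 without). Phlda3, an inhibitor of AKT, stood at 17.6 to 27.4 TPM against 11.2 to 19.6 TPM (0.43, adjusted p = 0.0368 with the block and 0.191 without). With litter as a random effect Trp53i11 joined them (0.27, limma adjusted p = 0.0207), at 20.2 to 23.4 TPM against 15.9 to 19.6 TPM, in a fit that called 5.51% of all rows, 1.82% as higher. All 3 were higher in the mutant in 5 of 5 litters, and Ccng1 and Trp53i11 did not overlap between the classes. The share of all rows with such agreement of litters or such a gap is not given here. These 3 and Hormad2 were named after their values were seen, and the macrophage, Leydig and erythroid markers given above moved the same way in the same litters.

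Few of the other death-inducing p53 targets were called. Of 8 tested, 1 rose and 1 fell from 8 to 12 dpp in non-mutants and 2 rose and 1 fell in mutants (2 and 2 under median-ratio scaling). Aen, an apoptosis-enhancing nuclease, rose by 0.27 and 0.29 on the log2 scale, although the non-mutant rise was not called under median-ratio scaling or quantile normalization, and Siva1 rose by 0.28 in mutants. From 12 to 16 dpp none was called in either class.

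In the BCL2 family, to which BAX belongs, calls went both ways. Of 12 tested, 2 rose and 4 fell from 8 to 12 dpp in non-mutants (1 and 4 under median-ratio scaling), and 3 rose and 4 fell in mutants. The risers, named after their values were seen, were the BH3-only gene Bik (0.86 and 1.61 on the log2 scale) and the protector Bcl2l1 (0.30 and 0.36) in both classes, with the BH3-only gene Bid (0.34) in mutants; Bcl2l1 lost its non-mutant call under median-ratio scaling. Bok, a pore-forming relative of BAX, fell from 230 ± 53.5 to 98.3 ± 14.8 TPM and on to 44.9 ± 2.95 TPM in non-mutants (SD, n = 5 each), and from 220.0 ± 31.1 to 105 ± 24.3 and 44.8 ± 2.63 TPM in mutants. The protectors Mcl1 and Bcl2 fell in the same first step, by 0.44 and 0.65 on the log2 scale in non-mutants and by 0.37 and 0.73 in mutants. Hrk, a BH3-only killer, fell by 1.505 in non-mutants and by 1.66 in mutants from 12 to 16 dpp. That step had 2 rising and 4 falling in non-mutants, which became 2 and 2 under both scalings, where Mcl1 and Bcl2 lost their calls, and 0 rising and 3 falling in mutants.

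In the caspase and apoptosome list 2 of 16 genes differed between genotypes at 16 dpp, and both were lower in mutants, where 2.75% of all rows were called lower. Cyct, the testis form of cytochrome c, read 25.7 ± 4.43 TPM (SD, n = 5) in mutants and 75.6 ± 30.5 TPM (SD, n = 5) in non-mutants, a log2 difference of -1.45 (SE 0.215, limma adjusted p = 3.2e-05). Diablo, whose product releases caspases from their inhibitors, read 175 ± 18.3 against 253 ± 54.8 TPM (SD, n = 5 each; log2 difference -0.51, SE 0.121, limma adjusted p = 0.0098). Both were lower in the mutant in 5 of 5 litters, with no overlap between the classes. The pachytene and diplotene markers given above were lower in mutants as well, and their part in this was not tested. With age, 4 of the 16 rose and 2 fell from 8 to 12 dpp in non-mutants and 4 rose and 3 fell in mutants, among them Dffa, the inhibitor of the caspase-activated nuclease, which rose by 0.72 and 0.61 on the log2 scale. In the later step 3 rose and 1 fell in non-mutants and 2 rose in mutants (3 under each scaling). The 12 to 16 dpp step of Cyct differed between classes (-1.51, SE 0.304, limma adjusted p = 0.0045), where 0.0849% of all rows had a higher and 1.26% a lower step in mutants.

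Cell cycle inhibitors other than Cdkn1a also changed with age. Of 8, 3 rose and 3 fell from 8 to 12 dpp in non-mutants, and 3 rose and 2 fell in mutants. From 12 to 16 dpp 4 rose and none fell in each class. Cdkn2d, an INK4 inhibitor, went from 18.2 ± 1.12 to 39.6 ± 5.45 and 64.5 ± 13.4 TPM in non-mutants and from 17.4 ± 2.94 to 37.7 ± 3.69 and 62.3 ± 6.88 TPM in mutants (SD, n = 5 each). Cdkn2c, another INK4 inhibitor, was lowest at 12 dpp. It went from 20.9 ± 2.62 to 10.8 ± 2.20 and 22.3 ± 5.35 TPM in non-mutants (SD, n = 5 each). In mutants it went from 20.3 ± 4.58 to 10.8 ± 1.37 and 16.3 ± 1.83 TPM (SD, n = 5 each). Its rise in the later step was 0.97 in non-mutants and 0.55 in mutants on the log2 scale. None of the 8 differed between genotypes at 16 dpp.

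Genes of the dissociation response, which can be induced while tissue is digested, were followed as a handling check because several stress genes respond to it. Of 14, 7 fell and 0 rose from 8 to 12 dpp in non-mutants, and 5 fell and 0 rose in mutants, and Ier3 fell by 1.47 and 1.16 on the log2 scale. In the later step 2 fell in non-mutants (1 under median-ratio scaling) and none was called in mutants. At 16 dpp none differed between genotypes.

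**Figure D5:**
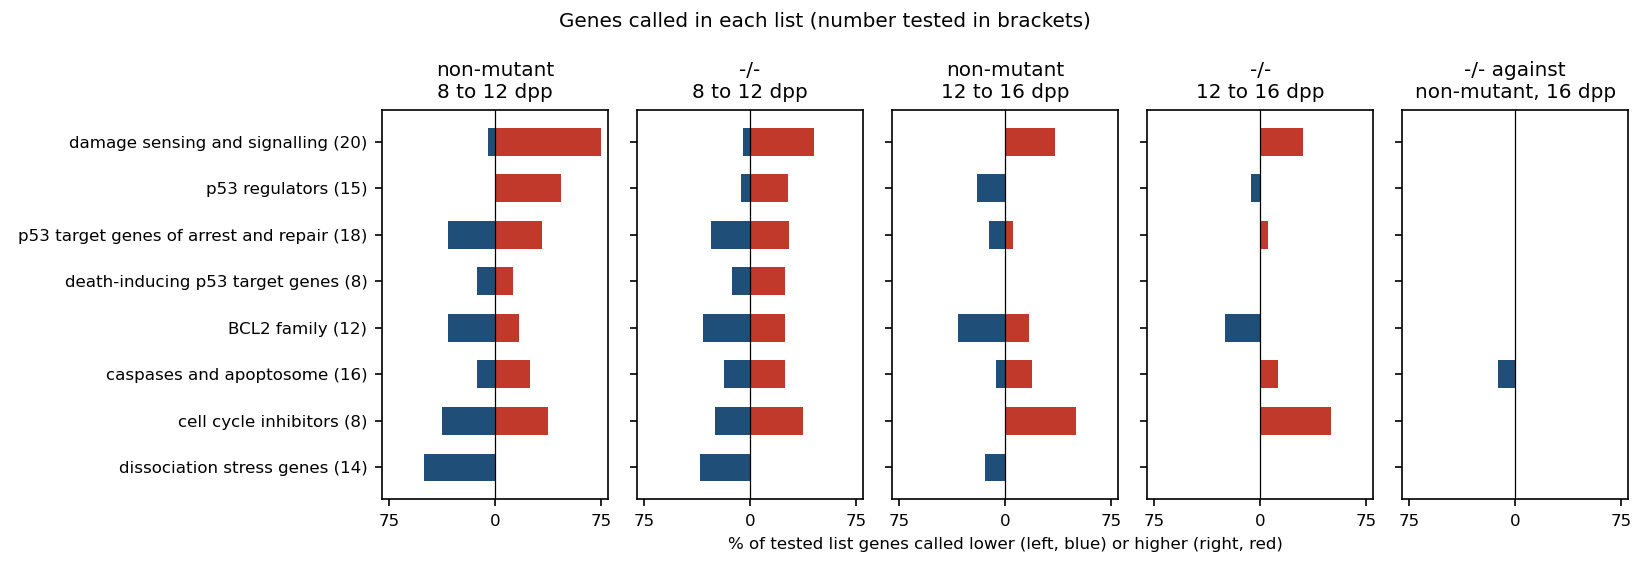
Share of the tested genes of each of 8 lists (rows, number tested in brackets) called higher (right, red) or lower (left, blue) in the 4 age steps and between genotypes at 16 dpp, as a percentage on the horizontal axis. Damage sensing genes stand out in the first step of non-mutants (15 of 20 higher), a step in which no row was shown to differ between the classes. At 16 dpp the genotype calls of this fit, which has no litter term and no rescaling, lie in the caspase list (2 of 16 lower).

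The genes whose pattern over the 30 libraries lay closest to each tested gene were sought among 13953 genes, by the root mean square difference of log2(TPM + 1) after each gene's mean was removed. Atm was nearest to Cenpf (0.120) and Dicer1 (0.125), and Mdm2 to Stt3b (0.0840) and Vcp (0.0909). Trp53 lay closest to Atg101 (0.127) and Slc2a1 (0.134), Bax to Emc8 (0.113) and Eef1d (0.117), and Chek2 to Lap3 (0.146) and Tyw1 (0.149). Cdkn1a lay closest to Pdk4 (0.326) and Zfp367 (0.340). This distance grows with a gene's own spread, so it is not compared between members. Bbc3 was nearest to Nfkb2 (0.278) and Dedd2 (0.299), Pmaip1 to Orc4 (0.181) and Zbtb10 (0.188), and Trp63 to Vkorc1l1 (0.180) and Cfl2 (0.184). These are descriptions over libraries that share litters and cell content.

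The positions of the genes are those of mm10 in GENCODE M21, and all 10 are annotated as protein coding. Atm lies at chr9:53439149-53536740, Chek2 at chr5:110839979-110874145, Trp53 at chr11:69580359-69591873, Trp63 at chr16:25683763-25892102 and Trp73 at chr4:154056253-154140208. Cdkn1a lies at chr17:29090976-29100727, Mdm2 at chr10:117688875-117710758, Bax at chr7:45461697-45466898, Bbc3 at chr7:16308393-16318205 and Pmaip1 at chr18:66458533-66465565. Bax overlaps the gene model Gm45808 on the same strand, Cdkn1a an antisense model and Trp73 the antisense gene Trp73os, whose own row averaged 0.0027 TPM. Trp63 overlaps the processed pseudogene Gm27005 on the same strand and the snRNA model Gm24928 on the other, each with a row mean of 0.0 TPM. Strand use in the counting is not given in the sources used here, so the values of these genes could include reads of their overlapping partners.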

How the data were processed

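Per the labels' protocols, seminiferous tubules were digested with Liberase, washed to remove interstitial cells, and RNA was purified with QIAzol and RNeasy columns. The authors deposited TPM values per gene for 30 libraries. The submitters' processing notes list the tools RSEM 1.2.8 and Bowtie 1.0.0 and the build mm10 or GRCm38, without saying which step used which. The table has 65534 rows and is held in part: its values leave 3.23 to 3.95% of the TPM total of a library unaccounted for.

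Gene symbols came from GENCODE M21. limma 3.58.1 (R 4.3.3) was fitted with a mean-variance trend on log2(TPM + 1) to 6 groups (genotype class by age) over 20021 rows above 1 TPM in at least 5 libraries, after being tested on simulated data. Heterozygotes and wild types were compared in the 15 non-mutant libraries. Fold changes on this scale understate changes of low genes. The file's header gives the litter, which paired mutants and non-mutants: 17 pairs correlated in their deviations from group means with r of 0.063 to 0.390 (median 0.220), 13 of them over 0.1, against a median of -0.084 for other pairs. Litter entered as a replicate block within an age, or as a random effect, in the alternatives.

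The members, lists and tests were chosen with earlier results of these data known. All 10 members were named, with up to 4 called genes per list and comparison by smallest adjusted p in the direction with more calls, and the 2 nearest genes of each member. Promoter windows came from RefSeq (GRCm38.p6). Plots were drawn with matplotlib 3.10.9 from tables made with pandas 2.3.3. Pseudocount, filter, scaling, litter, control genotype and single libraries were varied.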

Additional observations from a re-analysis of the deposited data

Results flagged for a closer look

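The 10 genes were examined in 6 groups of 5 libraries, 60 sets in all. In 2 of them a library stood apart from the rest of its group, and chance alone marks about 1 set in 20. Atm read 27.9 TPM in the library labelled Prdm9-/- replicate 5 of 12 dpp, when the other 4 mutants of that age lay between 22.9 and 23.9 TPM. This is the litter 13 library whose Prdm9 level goes against its label, and its mate had the highest Atm of all libraries, 33.0 TPM. Chek2 read 9.92 TPM in the Prdm9+/- replicate 3 of 12 dpp, when the other 4 non-mutants of that age lay between 8.20 and 8.65 TPM. Its litter mate, a mutant, read 9.96 TPM.

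Of the pathway genes, Cyct changed differently between genotypes from 12 to 16 dpp: the mutant step minus the non-mutant step was -1.51 on the log2 scale (limma adjusted p = 0.0045). Non-mutants went from 25.5 ± 1.73 to 75.6 ± 30.5 TPM and mutants from 26.6 ± 1.49 to 25.7 ± 4.43 TPM (SD, n = 5 each).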

How the results depend on the processing

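The counts of called members were 0 for every genotype comparison, for both differences between steps and for heterozygotes against wild types under each alternative run, including each library left out in turn (0 to 0). With the litter as a replicate block, within each age alone, 0 members were called at 8, 12 and 16 dpp and the pairing of litter mates in that block changed no genotype call of a member. The age counts moved. From 8 to 12 dpp in mutants the count of 1 became 0 with no filter, with litter as a random effect and without litter 13, and 2 under median-ratio scaling, quantile normalization and, chosen after seeing the data, without litters 3 and 10; leaving out single libraries gave 0 to 2. From 12 to 16 dpp in mutants the count of 1 became 0 with no filter, under quantile normalization, without litter 13 and with heterozygotes alone as non-mutants, and 2 without litters 3 and 10 (Cdkn1a and Pmaip1, the latter with limma adjusted p = 0.0338); single libraries gave 0 to 2. In non-mutants the 8 to 12 dpp count of 1 became 2 under median-ratio scaling, where Trp53 was called (-0.32, limma adjusted p = 0.0442), and 1 to 2 with single libraries out, Bbc3 being called without the Prdm9+/- replicate 2 of 8 dpp (-0.78, adjusted p = 0.0408), whereas its change was -0.05 (adjusted p = 0.91) without litters 3 and 10. The 12 to 16 dpp count of 0 became 1 without litters 3 and 10 (Bax, -0.25, adjusted p = 0.0308), and 0 to 1 with single libraries out. With no filter more rows are tested; for the other changes the cause was not tested. No member changed sign together with a call. The mutant Atm call was lost without Prdm9-/- replicates 2 or 5 of 8 dpp or 2, 3 or 5 of 12 dpp (adjusted p 0.0501 to 0.135). Scaling moved the median of all rows by up to 0.09 on the log2 scale. A random effect of litter for heterozygotes against wild types was not run, since a single litter holds 2 non-mutant animals.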
